A study of Mus musculus with 30 samples.

Results

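A set of 9 genes of the neuronal cytoskeleton were followed through the maturation of mouse primary visual cortex (V1). They were Nefl, Nefm, Nefh, Ina, Map1b, Map2, Mapt, Tubb3 and Dcx, and every probe set whose array annotation names 1 of them alone was taken. This gave 25 probe sets for 9 of the 15965 genes named on the arrays. Of these 25, 21 were bright enough to be tested, and each of the 9 genes had at least 1 tested probe set. V1 of standard-reared mice was microdissected at postnatal days 14, 28 and 60 (P14, P28 and P60). P14 and P28 were each represented by 3 litters and P60 by 4. Each litter was measured on a set of 3 Affymetrix MG-U74 (version 2) arrays. Chip A carried 13 of the member probe sets, chip B held 7 and chip C another 5. Strain, sex and the number of animals in a litter sample are not given in the sources used here, and nothing but age is stated to differ between the groups.

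Neuronal intermediate filaments and microtubules form the scaffold of axons and dendrites. Young neurons that migrate and extend processes are rich in doublecortin (Dcx), MAP1B (Map1b), the neuronal beta-tubulin TUBB3 and the intermediate filament protein alpha-internexin (Ina). In maturing axons the light, medium and heavy neurofilament subunits (Nefl, Nefm and Nefh) accumulate, with tau (Mapt) on axonal microtubules and MAP2 (Map2) on those of dendrites.

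The clearest differences lay between P14 and the later ages and ran in opposite directions for different members. Dcx signal at P28 was on average 0.484 of that at P14, and 1 of the 2 Tubb3 probe sets stood at P60 at 0.503 of its P14 level. A Mapt probe set had at P28 a mean 1.74 times that of P14. In each of these 3 probe sets every P14 litter lay on 1 side of every P28 and every P60 litter. In the other tested Mapt probe sets P14 overlapped with both later ages. Of all tested probe sets, 17.9% were apart between P14 and P28 and 13.0% between P14 and P60. The counts of members apart lay near these shares. No member probe set passed the test across all probe sets when all litters entered the fit. All 4 neurofilament and internexin genes had P14 and P60 litters that overlapped in every tested probe set.

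The P14 litter 1 arrays stood apart. On its 3 arrays the 3' control probe set exceeded the 5' one by 9.57 to 12.2 times for Gapdh and by 12.2 to 12.8 times for Actb. The other 27 arrays had Gapdh ratios between 0.741 and 1.32 and Actb ratios between 1.04 and 1.5. On chips A and B, P60 litters 1 and 4 correlated with the remaining arrays at a mean r of 0.883 to 0.923, where the P28 litters had 0.927 to 0.952. The chip C array of P60 litter 2 had 0.86. Results are therefore given with all litters, without P14 litter 1, and for a restricted set without all of these arrays, which leaves 2 litters each at P14 and P60 on chips A and B. In the member probe sets, P14 litter 1 exceeded 1.5 times the mean of the other P14 litters in 6 of 21 and lay below the inverse of that fold in 2 of 21. Over all tested probe sets these shares were 22.4% and 26.35%. The 6 were all 4 Ina probe sets, at 2.27 to 3.20 times, 1 Nefl probe set at 2.68 times and 1 Mapt probe set at 2.60 times, as the plot of P14 litter 1 against the other P14 litters shows.

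**Figure D1:**
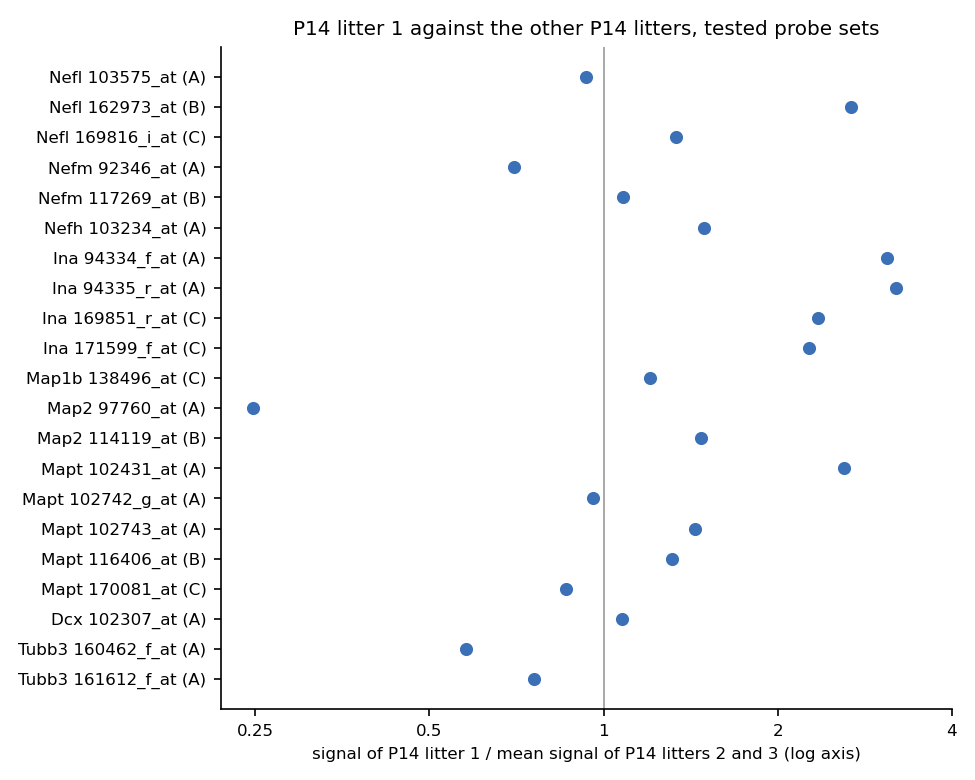
Signal of P14 litter 1 divided by the mean signal of P14 litters 2 and 3 (log axis) for the 21 tested member probe sets, 1 point each, with the chip in brackets. The 4 Ina probe sets lie between 2.27 and 3.20, and Map2 97760_at lies at 0.248.

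Signals are MAS5 intensities on a linear scale, and differences between ages are differences of log2(signal + a constant), with limma's standard error (SE). The adjusted p of limma ran over all 20724 tested probe sets, with a threshold of 0.05. With all litters, 0 of 21 member probe sets passed in each of the 3 comparisons. Over all tested probe sets 0.00483% passed for P28 against P14, 0.00% for P60 against P28 and 0.396% for P60 against P14. At an unadjusted limma p under 0.05 the members gave 3, 0 and 4 of 21 in these comparisons, and 7.87%, 5.43% and 15.7% of all tested probe sets did so. The groups did not overlap in 4 of 21 member probe sets between P14 and P28, where 17.9% of all tested probe sets were apart. Between P14 and P60 this held for 3 of 21, against 13.0% of all, and between P28 and P60 for 1 of 21, against 8.36%. These counts lie near the background. Without P14 litter 1 the groups were apart in 9 of 21 between P14 and P28 and in 7 of 21 between P14 and P60, where 37.6% and 28.8% of all tested probe sets were.

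A test for any difference among the 3 ages (limma moderated F) gave 0 of 21 members with all litters, where 0.111% of all tested probe sets passed. It gave 1 without P14 litter 1 (0.627% of all), which was Tubb3 161612_f_at, and 1 in the restricted set (1.07%), which was Mapt 102431_at. With array weights, which let arrays that follow the fit less closely count less, 4 of 21 members passed for P28 against P14 (5.61% of all), 8 for P60 against P14 (17.5%) and 5 for any age (14.6%). The 8 were both Tubb3 probe sets, Dcx, Map2 97760_at and Nefm 117269_at, all lower at P60, and Mapt 102431_at, Mapt 102742_g_at and Nefh, all higher.

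Promoters of 2 members, Dcx and Tubb3, are shown. Dcx and 1 of the 2 Tubb3 probe sets had all P14 litters above all later ones, while the other Tubb3 probe set overlapped between ages. Each window is the 250 bases before the gene's RefSeq start in GRCm38.p6, read 5' to 3' on the gene's strand, and capitals mark the searched motifs.

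Dcx (chrX:143933220-143933469, minus strand): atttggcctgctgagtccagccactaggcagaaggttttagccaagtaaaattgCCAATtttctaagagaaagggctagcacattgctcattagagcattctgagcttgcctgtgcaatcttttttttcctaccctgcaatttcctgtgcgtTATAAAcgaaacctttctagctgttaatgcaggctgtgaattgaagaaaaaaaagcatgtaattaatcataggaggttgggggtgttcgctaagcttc
Tubb3 (chr8:123411303-123411552, plus strand): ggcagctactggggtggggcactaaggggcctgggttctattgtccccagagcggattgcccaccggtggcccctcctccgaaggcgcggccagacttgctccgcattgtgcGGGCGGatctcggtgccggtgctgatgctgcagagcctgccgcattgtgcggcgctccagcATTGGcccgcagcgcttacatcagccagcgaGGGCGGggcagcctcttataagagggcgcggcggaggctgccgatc

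Both strands were searched for the E-box CANNTG, the GC box GGGCGG, the TATA box TATAAA and the CCAAT box CCAAT. Among 32851 windows of the same length, 66.2% held an E-box, 32.7% a GC box, 12.4% a TATA box and 33.8% a CCAAT box. The Dcx window held 1 TATA box and 1 CCAAT box, and its GC content was 41.6%. The Tubb3 window held 2 GC boxes and 1 CCAAT box, the latter on the opposite strand (ATTGG), and its GC content was 68%. The supplied table holds 2 windows for Dcx, of which the first is shown. The median GC content of all windows was 52.4%. Neither window held an E-box, and a match describes letters and not a bound site.

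Dcx binds and stabilises microtubules in migrating neurons. Its probe set 102307_at gave 728, 667 and 686 at P14, 272, 368 and 368 at P28, and 459, 399, 403 and 314 at P60. All P14 litters lay above all later litters, and the P28 and P60 litters overlapped. The means were 694 ± 31.4 (SD, n = 3), 336 ± 55.3 (n = 3) and 394 ± 59.9 (n = 4). The log2 difference was -0.98 (SE 0.208, limma adjusted p = 0.235) for P28 against P14 and -0.77 (SE 0.195, adjusted p = 0.110) for P60 against P14. P14 litter 1 was at 1.08 times the mean of the other P14 litters here. In the restricted set Dcx fell from P14 to P28 by 0.94 (adjusted p = 0.0448), where 1.00% of all tested probe sets passed, and it was the 1 member of 21 that did. P60 against P14 stood at -0.70 (adjusted p = 0.102). Over 20 settings, that with all litters and equal weights among them, the adjusted p for P28 against P14 ran from 0.00482 to 0.738 and passed in 2, and the log2 difference from -1.06 to -0.74. V1 is bulk tissue, so fewer cells of a type and less RNA per cell cannot be told apart. With all litters, other markers of newborn or migrating neurons gave no passing gene among 6 tested of 8 listed. Their summed signal ran from 5961 to 12295 at P14, 6397 to 7810 at P28 and 6733 to 7935 at P60. The highest P14 sum was that of litter 1, where Tbr1 gave 9346, against 2150 and 2850 in the other P14 litters. Those other P14 litters summed below every later litter. Of that list, the surface protein gene Cd24a had means of 1131, 499 and 432 and a log2 difference of -1.26 for P60 against P14 (adjusted p = 0.0899) with all litters. Without P14 litter 1 Cd24a fell by 1.57 (adjusted p = 0.0140), and Tbr1, a transcription factor of deep-layer neurons, rose by 1.01 (adjusted p = 0.0175). In the restricted set, where Dcx passed, Cd24a fell from P14 to P28 by 1.36 (adjusted p = 0.0289). The part of these cells in the Dcx difference was not tested.

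Tubb3 encodes the beta-tubulin largely restricted to neurons, and both its probe sets carry the suffix f, given by the array maker to probe sets that may also bind related transcripts. Probe set 161612_f_at gave 2793, 4360 and 3004 at P14, 2244, 2159 and 2561 at P28, and 1535, 1784, 1952 and 1542 at P60. The 3 ages did not overlap, in the order P14, P28, P60, which no other tested member probe set showed. The means were 3386 ± 850 (n = 3), 2321 ± 212 (n = 3) and 1703 ± 202 (n = 4), and the log2 difference of P60 against P14 was -0.95 (SE 0.203, adjusted p = 0.0685). Without P14 litter 1 it fell by 1.08 (adjusted p = 0.0175), where 2.40% of all tested probe sets passed, and in the restricted set by 0.94 (adjusted p = 0.0395), where 2.13% did. Over the 20 settings the adjusted p ran from 0.0024 to 0.256 and passed in 3. Probe set 160462_f_at gave 7462, 13837 and 11978 at P14, 9499, 9086 and 11073 at P28, and 6311, 9806, 9944 and 9573 at P60. The lowest P14 value was that of litter 1, and the ages overlapped. Its log2 difference was -0.29 (SE 0.253, adjusted p = 0.592) with all litters and -0.55 (adjusted p = 0.164) without P14 litter 1. The 2 probe sets had a Pearson r of 0.65 over 10 litters and of 0.83 over the 9 without P14 litter 1.

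Map1b, a microtubule-associated protein of growing axons, was measured by 138496_at, which gave 819, 660 and 703 at P14, 678, 716 and 860 at P28, and 765, 376, 684 and 626 at P60. The ages overlapped, and the low P60 value came from the chip C array of litter 2 that stood apart. The log2 difference was 0.04 (SE 0.283) for P28 against P14 and -0.27 (SE 0.265, adjusted p = 0.642) for P60 against P14.

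Ina, which co-assembles with the neurofilament subunits, had 4 tested probe sets, and P14 litter 1 was the highest of all 10 litters in each. Probe set 94335_r_at gave 10417, 2930 and 3583 at P14, 3206, 4468 and 3500 at P28, and 3444, 3815, 3634 and 4541 at P60. Apart from P14 litter 1 the ages overlapped. The log2 difference of P60 against P14 was -0.32 (SE 0.358, adjusted p = 0.691) with all litters and 0.24 without P14 litter 1. Its sign thus rested on that litter. The correlation of 94334_f_at with 94335_r_at likewise went from 0.911 over 10 litters to 0.261 over 9.

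**Figure D2:**
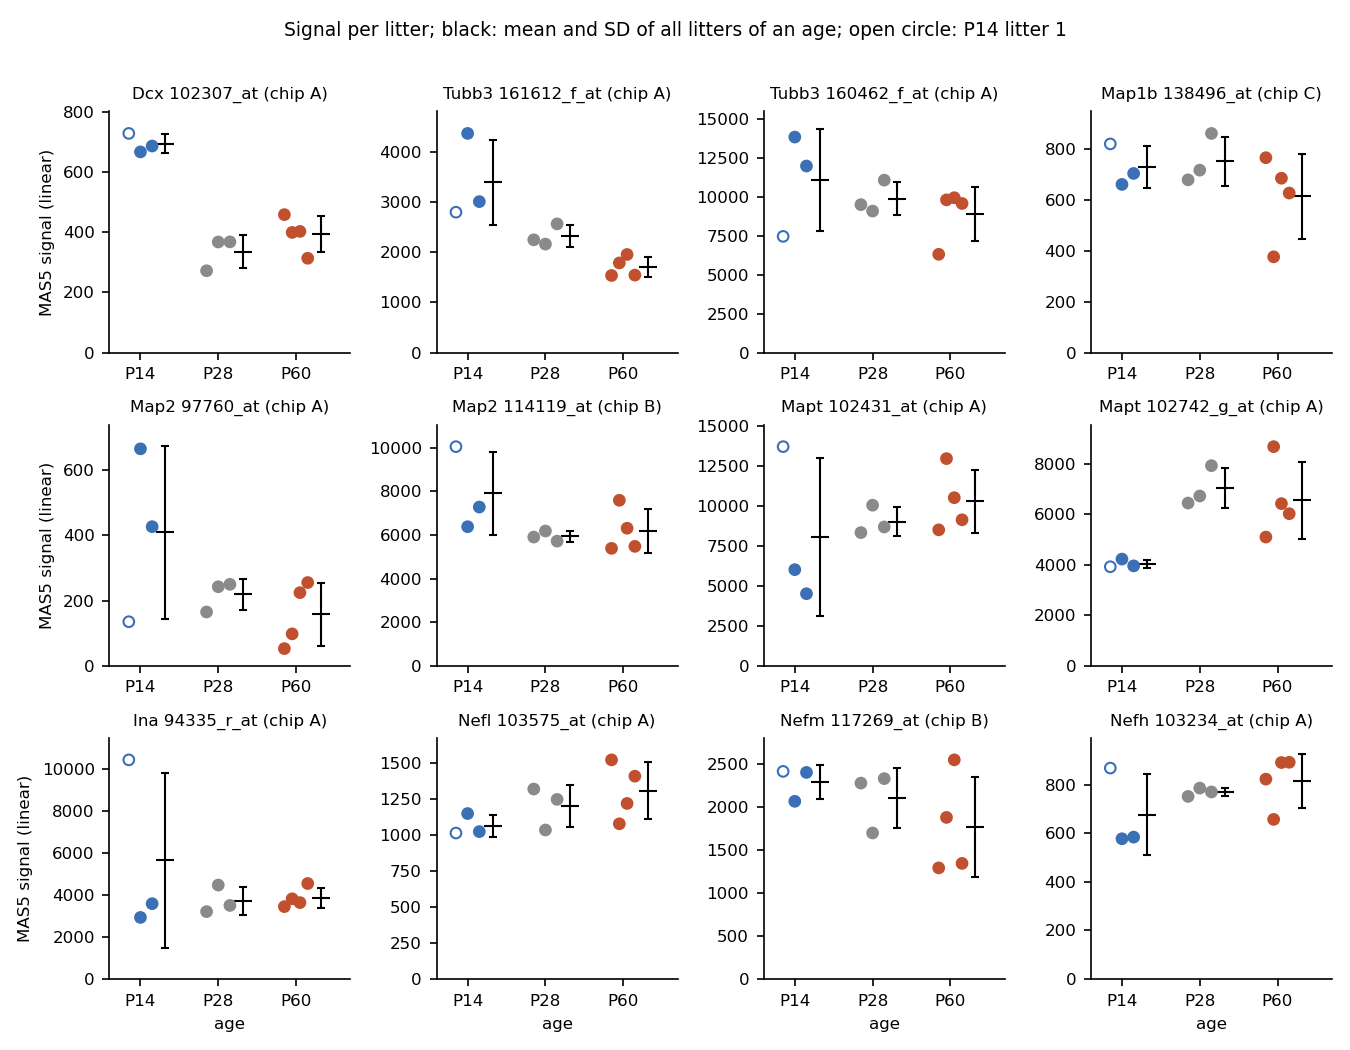
MAS5 signal (linear axis from 0) of 12 member probe sets by age, 1 point per litter, with black marks for the mean and SD of all litters of an age and an open circle for P14 litter 1. Dcx 102307_at lies between 667 and 728 at P14 and between 272 and 459 later, while Mapt 102742_g_at lies between 3929 and 4232 at P14 and between 5105 and 8689 later.

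Mapt encodes tau, which binds axonal microtubules, and had 5 tested probe sets that did not behave alike. Probe set 102742_g_at gave 3929, 4232 and 3963 at P14, 6454, 6733 and 7935 at P28, and 5105, 8689, 6430 and 6031 at P60. All P14 litters lay below all later ones, and P28 and P60 overlapped. The means were 4041 ± 166 (n = 3), 7041 ± 787 (n = 3) and 6564 ± 1522 (n = 4). The log2 difference was 0.79 (SE 0.222, adjusted p = 0.397) for P28 against P14 and 0.67 (SE 0.207, adjusted p = 0.163) for P60 against P14. In the restricted set it rose from P14 to P60 by 0.86 (adjusted p = 0.0473). Over the 20 settings the adjusted p of this comparison ran from 0.0210 to 0.346 and passed in 2.

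Probe set 102431_at of Mapt, annotated to the same source sequence, gave 13708, 6017 and 4512 at P14, 8333, 10047 and 8684 at P28, and 8505, 12959, 10516 and 9134 at P60. P14 litter 1 was the highest of all 10 litters and the other P14 litters were the lowest. With all litters the P60 against P14 difference was 0.49 (SE 0.325, adjusted p = 0.474). Without P14 litter 1 it rose by 0.96 (adjusted p = 0.0315), and in the restricted set by 1.16 (adjusted p = 0.0205). Over the 20 settings the adjusted p ran from 0.00905 to 0.849 and passed in 3. The Pearson r between 102431_at and 102742_g_at was 0.464 over 10 litters and 0.878 over the 9 without P14 litter 1.

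The ages overlapped in the other 3 Mapt probe sets. Probe set 102743_at ran from 1163 to 1819 at P14, 1115 to 1533 at P28 and 1335 to 1742 at P60, with a log2 difference of 0.03 (SE 0.209, adjusted p = 0.958) for P60 against P14. Probe set 116406_at had means of 5665 ± 946, 5747 ± 864 and 5525 ± 349 and a difference of -0.03 (SE 0.188, adjusted p = 0.959). Probe set 170081_at had a difference of 0.30 (SE 0.424, adjusted p = 0.752), and 1 of its P28 litters, at 84.0, lay below the level of bacterial control probe sets on chip C. The probe sets of Mapt therefore disagreed, and which part of the transcript each one reads was not used here.

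Map2, the microtubule-associated protein of dendrites, was read by a dim and a bright probe set. Probe set 97760_at gave 135, 665 and 427 at P14, 165, 242 and 250 at P28, and 52.9, 98.1, 224 and 255 at P60. P14 litter 1 lay among the later litters, the other P14 litters lay above all of them, and 2 of the P60 litters were at or below the chip A bacterial control level of 98.4, so the size depends on the added constant. The log2 difference of P60 against P14 was -1.12 (SE 0.499, adjusted p = 0.303), and -1.59 (adjusted p = 0.0473) in the restricted set. Over the 20 settings the adjusted p ran from 0.0119 to 0.545 and passed in 2. Probe set 114119_at gave 10055, 6382 and 7284 at P14, 5908, 6186 and 5720 at P28, and 5390, 7595, 6313 and 5481 at P60. All P14 litters lay above all P28 litters and overlapped with P60. Its difference was -0.38 (SE 0.222, adjusted p = 0.725) for P28 against P14 and -0.34 (SE 0.208, adjusted p = 0.442) for P60 against P14. In the restricted set the latter was 0.02 (adjusted p = 0.96).

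Nefh, the heavy neurofilament subunit, gave 869, 578 and 584 at P14, 752, 786 and 770 at P28, and 823, 657, 891 and 892 at P60 with 103234_at. P14 litter 1 lay within the P60 range, and the other P14 litters lay below all later ones. The log2 difference of P60 against P14 was 0.27 (SE 0.20, adjusted p = 0.526) with all litters and 0.45 (adjusted p = 0.186) without P14 litter 1. Over the 20 settings the adjusted p ran from 0.0408 to 0.749 and passed in 1, with array weights. At P28 the 3 litters differed by an SD of 17.1 around a mean of 769, the smallest spread relative to its mean among the 25 member probe sets at that age.

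Nefl, the light subunit around which the others assemble, gave 1012, 1147 and 1022 at P14, 1317, 1033 and 1245 at P28, and 1519, 1076, 1217 and 1406 at P60 with 103575_at. The ages overlapped, and the log2 difference of P60 against P14 was 0.28 (SE 0.187, adjusted p = 0.480). Probe set 162973_at gave 22722 in P14 litter 1 and 6904 to 11359 in the other 9 litters, with a difference of -0.46 (SE 0.334, adjusted p = 0.519) that was 0.01 without P14 litter 1. The 2 probe sets had a Pearson r of -0.619 over 10 litters, so they did not read Nefl alike. Probe set 169816_i_at ran from 404 to 759 over the 10 litters, with a difference of -0.03 (SE 0.277).

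Nefm, the medium subunit and the next protein-coding gene after Nefl on their chromosome, had its highest mean at P14 in both tested probe sets. Probe set 117269_at gave 2415, 2067 and 2403 at P14, 2279, 1699 and 2331 at P28, and 1293, 1880, 2549 and 1345 at P60. The P60 litters spanned the P14 range, and the low pair were litters 1 and 4, whose arrays stood apart on this chip. The log2 difference of P60 against P14 was -0.42 (SE 0.241, adjusted p = 0.412), and -0.03 (adjusted p = 0.967) in the restricted set. Over the 20 settings the adjusted p ran from 0.0265 to 0.967 and passed in 1, with array weights. Probe set 92346_at gave 419, 685 and 513 at P14, 425, 377 and 756 at P28, and 233, 55.9, 800 and 397 at P60, and its difference was -0.87 (SE 0.566, adjusted p = 0.469).

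Among the 21 tested member probe sets, 6 had a higher log2 level at P60 than at P14, with a median difference of -0.29, where the median of all tested probe sets was 0.06. Without P14 litter 1 the members gave 13 of 21 and a median of 0.10, against 0.02 for all. The direction of the members as a group thus turned with that 1 litter. In the plot of P60 minus P14 differences, both Tubb3 probe sets, Dcx, both Nefm and both Map2 probe sets and Map1b lie below 0 with and without it. The 4 untested probe sets, Nefm 164683_r_at, Map1b 99928_at, Map2 111562_at and Mapt 164807_at, were at or below the bacterial control level in all 10 litters.

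**Figure D3:**
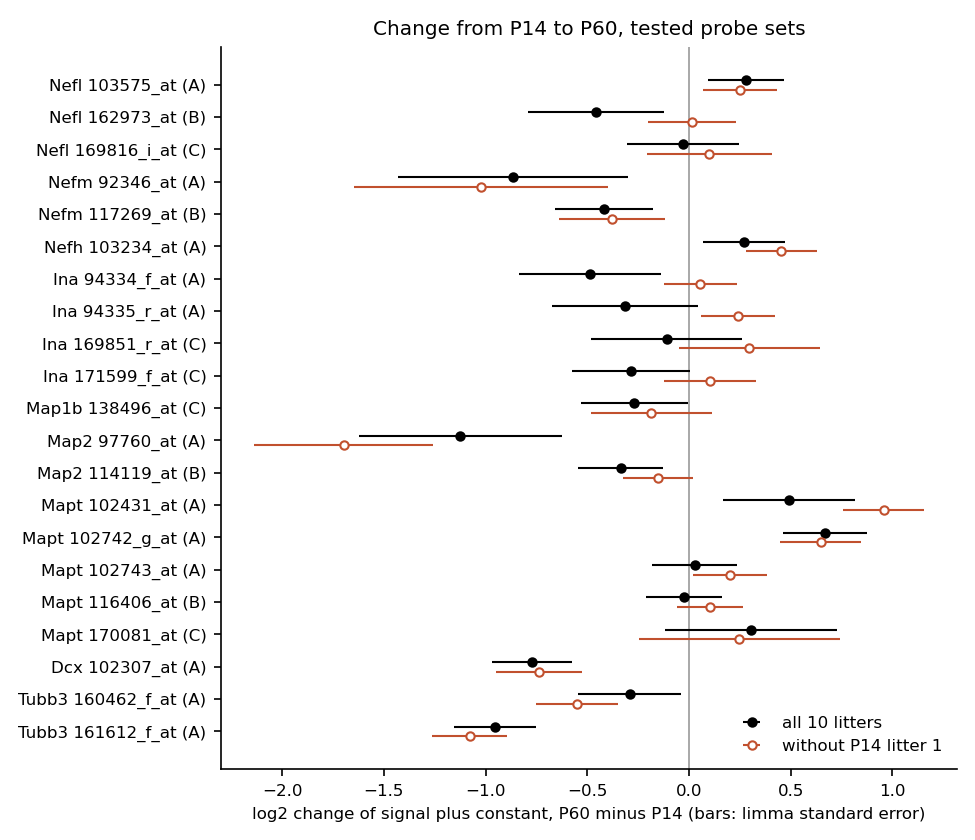
Log2 difference P60 minus P14 of the 21 tested member probe sets, with limma's SE as bars, for all 10 litters (filled) and without P14 litter 1 (open). Tubb3 161612_f_at lies at -0.95 and -1.08, Mapt 102742_g_at at 0.67 and 0.65, and Ina 94335_r_at at -0.32 and 0.24.

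Pairs of members were also set against each other within an array, as the log2 ratio of 2 signals minus its P14 mean, which shows unequal change and not which member changed. Mapt 102742_g_at over Dcx was -0.11, 0.12 and -0.01 at P14, 2.03, 1.65 and 1.89 at P28, and 0.93, 1.90, 1.46 and 1.72 at P60. The later litters all lay above P14 and overlapped with each other. Nefh over Dcx had means of 1.27 ± 0.22 (SD, n = 3) at P28 and 1.12 ± 0.35 (n = 4) at P60. Nefh over Tubb3 161612_f_at was 0.64, -0.60 and -0.04 at P14, had a mean of 0.73 ± 0.14 at P28 and of 1.26 ± 0.29 at P60, and P14 litter 1 lay within its P28 range. No test was made of these ratios, since their members were set side by side with the results known.

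**Figure D4:**
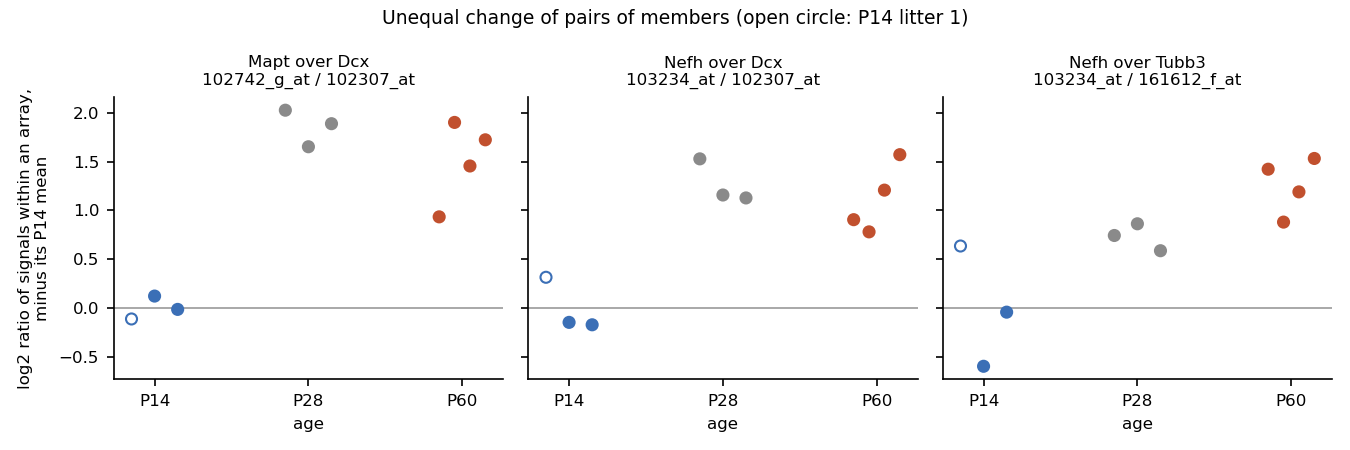
Log2 ratio of 2 member signals within an array, minus its P14 mean, by age, 1 point per litter and an open circle for P14 litter 1. The means of Mapt over Dcx are 1.86 at P28 and 1.50 at P60, and those of Nefh over Tubb3 are 0.73 and 1.26.

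The genes most like Dcx and Nefh were taken by Pearson's r of log2 signal over the 10 litters, among 6155 probe sets on chip A. For Dcx these were Cadm1, a synaptic adhesion molecule (r = 0.944), Eogt (0.936), Ywhaz, a 14-3-3 protein (0.909), Col1a1, a fibrillar collagen (0.906), and Arhgef7 (0.904). Cadm1 means were 5162, 1018 and 1696 at P14, P28 and P60. Col1a1 was also 1 of 4 tested markers of meningeal cells and fibroblasts, whose summed signal was 9488 to 10228 at P14, 5301 to 5794 at P28 and 4823 to 5909 at P60. With all litters Igf2 was the 1 marker of that list that passed for P60 against P14. Without P14 litter 1 there were 2, Col1a1 among them (-0.75, limma adjusted p = 0.0488). Col1a2 was the 1 of the 4 above 0 with all litters, at 0.29 (adjusted p = 0.490). The part of these cells in the Dcx difference was not tested. The genes most like Nefh were Slc38a2, an amino acid transporter (0.981), Rnf6 (0.942), Fam126b (0.927), Kcnd2, a potassium channel (0.926), and Pls3 (0.920). The points share litters and arrays, so these values are a description.

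Other genes that build, modify or use microtubules and intermediate filaments were taken as 7 lists of 129 genes, 110 of them tested on 1 probe set each. With all litters 0 of 110 passed in each of the 3 comparisons. Without P14 litter 1, 7 of 110 (6.36%) passed for P60 against P14, 1 higher and 6 lower, where 2.40% of all tested probe sets passed. The 1 higher was the kinesin Kif21a, at 0.89 (limma adjusted p = 0.0322), and at 0.38 (adjusted p = 0.584) with all litters. The 6 lower were Tubb2a, Stmn2, Fyn, Ppp2r2b, Kif21b and Mapk9, the last at -1.24 (adjusted p = 0.0173). For P28 against P14 without that litter, 2 of 110 (1.82%) passed, both lower, where 0.125% of all did. In the restricted set 8 of 110 (7.27%) passed for P60 against P14, 3 higher and 5 lower, where 2.13% of all did. The 3 higher were Tppp, Plec and Kif21a, and the 5 lower were Tubb2a, Stmn2, Nes, Mapk9 and Kif21b. The 110 are 1 probe set per gene, from chip A first and the brightest within a chip. The shares of all count every tested probe set, so the list shares and these are not like for like.

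Among tubulins 2 of 11 had a higher level at P60 than at P14, and the median log2 difference was -0.20. Tuba1a, the main alpha-tubulin of young neurons, had means of 38525 ± 8814, 22016 ± 2989 and 20149 ± 3377 and a difference of -0.93 (adjusted p = 0.102). Tubb2a, another neuronal beta-tubulin, had a difference of -0.55 (adjusted p = 0.219) and fell by 0.73 without P14 litter 1 (adjusted p = 0.0301). Of the destabilising proteins, Stmn2, found in growth cones, gave 5216, 9644 and 7725 at P14, 4255, 4173 and 4035 at P28, and 3112, 3294, 3802 and 2880 at P60. All P14 litters lay above all P28 litters, which lay above all P60 litters. Its difference of P60 against P14 was -1.16 (SE 0.221, adjusted p = 0.0510), and it fell by 1.40 without P14 litter 1 (adjusted p = 0.00227). Kif2a of the same list differed by -0.49 (adjusted p = 0.260).

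The kinesin Kif21b gave 3452, 9530 and 7044 at P14, 2899, 3486 and 2637 at P28, and 2526, 3547, 2222 and 2442 at P60. P14 litter 1 lay among the later litters. The difference was -1.20 (SE 0.304, adjusted p = 0.110), and it fell by 1.61 without P14 litter 1 (adjusted p = 0.00620). The dynein light chain gene Dynll1 differed by -0.71 (adjusted p = 0.208), and by -0.44 without P14 litter 1. Fyn, a tyrosine kinase that acts on tau, differed by -0.86 (adjusted p = 0.0808) and fell by 0.90 without P14 litter 1 (adjusted p = 0.0316). The phosphatase subunit gene Ppp2r2b differed by -0.82 (adjusted p = 0.216) and fell by 1.16 without it (adjusted p = 0.0266). Differences above 0 were found for Plec, the linker plectin, with 0.85 (adjusted p = 0.0891), Map7d2 with 1.34 (adjusted p = 0.134) and the tubulin folding factor Tbce with 0.64 (adjusted p = 0.227). The values of 3 further list genes rested on P14 litter 1. The nuclear lamin gene Lmna gave 198 there and 1433 and 1297 in the other P14 litters, and its difference of 0.75 (adjusted p = 0.484) was -0.10 without it. The plus-end protein gene Mapre1 gave 4853 there against 1635 and 1419, with a difference of -0.91 (adjusted p = 0.254) that was -0.36 without it. The tubulin glutamylase subunit gene Ttll1 gave 46.8 against 653 and 565, with a difference of -0.74 (adjusted p = 0.562) that was -1.63 without it.

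**Figure D5:**
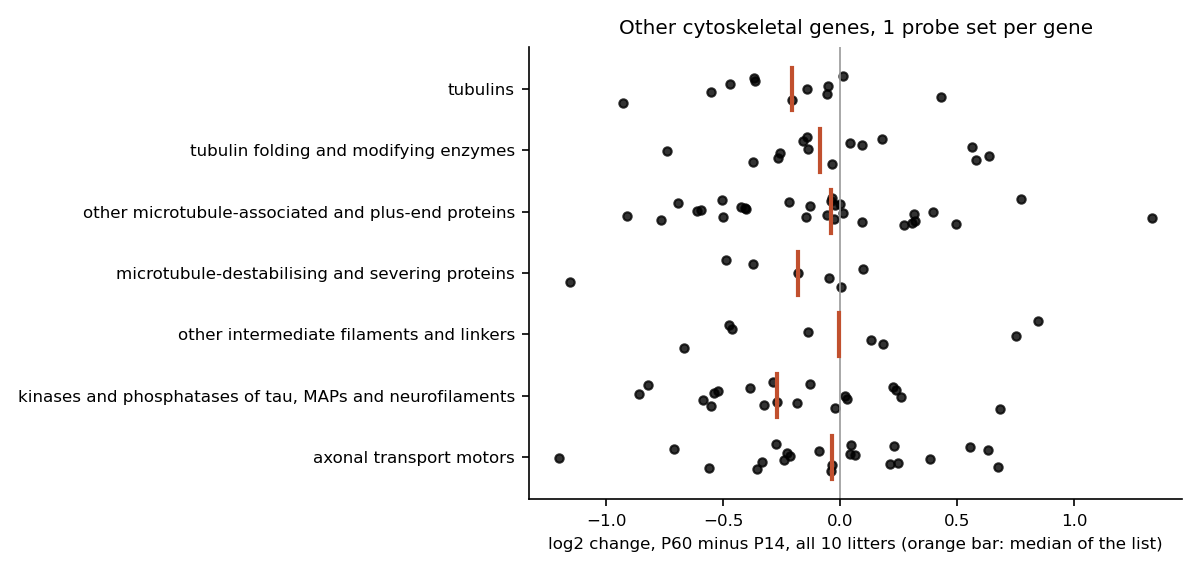
Log2 difference P60 minus P14 with all 10 litters for the tested genes of 7 lists, 1 point per gene, with an orange bar at the list's median. The tubulin median lies at -0.20, and the lowest points are Kif21b at -1.20 and Stmn2 at -1.16.

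Markers of other cells were measured over the same interval. The summed signal of 6 tested myelin genes ran from 4445 to 9075 at P14, 9829 to 15896 at P28 and 10730 to 15520 at P60, and Mag, a myelin glycoprotein, was the 1 of them that passed with all litters (1.52 for P60 against P14, adjusted p = 0.0461). Markers of projection neurons, among them Slc17a7 and Snap25, summed to 30165 to 35068 at P14, 25435 to 30416 at P28 and 23524 to 30849 at P60, with 0 of 6 passing with all litters. Their median log2 difference for P60 against P14 was -0.21 with all litters and -0.44 without P14 litter 1. Camk2a, a synaptic kinase gene, had -0.60 with all litters (adjusted p = 0.753) and -1.75 without P14 litter 1 (adjusted p = 0.146). In the restricted set it had -2.76 (adjusted p = 0.0102). The P60 litters kept there gave 83.7 and 65.6, below the chip A bacterial control level of 98.4. Those left out gave 303 and 576. Neurod6 and Snap25 of the same list had 0.21 and 0.26 in the restricted set. The part of these cell types in the differences of the members was not tested.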

How the data were processed

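The authors deposited linear signal intensities, and the submitters' processing notes name MAS5 as the tool. The 2% trimmed mean was about 500 on every array, so no further scaling was applied. Gene symbols came from the supplied array annotation, updated by gene ID, and a probe set with several symbols named no gene. The chips hold 36899 probe sets.

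Before taking log2, each signal was raised by a constant equal to its chip's 20th percentile (38.6, 57.8 and 44.0). Probe sets above the chip median (207, 252 and 183) on at least 3 arrays were tested, 20724 in all, for 11240 genes. Each chip was fitted alone with limma 3.58.1 in R 4.3.3 (lmFit, eBayes with trend), age as the only term and all 10 litters. Benjamini-Hochberg adjustment ran over the 3 chips. The fit was tested on simulated data. Bacterial control levels are 95th percentiles of 15 Bacillus probe sets per chip (98.4, 153 and 252).

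All member probe sets were named, with list genes past the threshold with all litters, or otherwise the 2 of largest P60 against P14 change in each list, and the 5 genes most like Dcx and Nefh. List genes that passed for P60 against P14 without P14 litter 1 or in the restricted set were named too. Where a gene has several probe sets, list values use 1, from chip A first and the brightest within a chip. Members, lists and the restricted set were chosen with earlier results of these data known. Every title opens with litter 1. The later litter number was used, and p-values assume separate litters. The number of arrays limits the precision. Promoter windows came from RefSeq (GRCm38.p6) for 5 of 9 members. The alternatives were other constants, no filter, quantile normalization, array weights, no variance trend, only the 2 ages compared, left-out litters, the restricted set and a replicate block.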

Additional observations from a re-analysis of the deposited data

Results flagged for a closer look

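Each of the 25 member probe sets was checked for a P60 litter far from the other 3, the only age with 4 litters. Chance alone flags about 1 in 20 such groups. Mapt 170081_at had its highest P60 litter at 592 (litter 2), against 383 to 401 in the others, and this chip C array stood apart from the other arrays. Tubb3 160462_f_at had its lowest P60 litter at 6311 (litter 1), against 9573 to 9944 in the others, and this chip A array had a mean correlation of 0.91 with the other arrays.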

How the results depend on the processing

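With all litters and equal weights 0 of 21 member probe sets passed in each comparison and for any age. Array weights gave 4 for P28 against P14, 8 for P60 against P14 and 5 for any age. Of all tested probe sets 5.61%, 17.5% and 14.6% passed with them. The restricted set gave 1, 4 and 1 in these comparisons, where 1.00%, 2.13% and 1.07% of all passed. Leaving out each litter in turn gave 0 to 2 for P60 against P14 and 0 to 1 for any age. The higher count in each case came without P14 litter 1, where 2.40% and 0.627% of all passed. The replicate block gave 0 throughout, with a Dcx difference of -0.68 for P60 against P14 (adjusted p = 0.336). Between litters of the same number, deviations from the age means correlated at r of -0.076 to 0.158. The labels do not say that a number marks anything shared between ages. With so few litters per age these values cannot settle it.

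In the restricted set, P60 against P28 turned to -0.0572 for Nefl 103575_at, -0.0062 for Nefh, 0.0917 for Mapt 102742_g_at and 0.0036 for Tubb3 160462_f_at, and P60 against P14 to 0.0165 for Map1b. Further member probe sets turned there too. Among them, P60 against P14 became 0.0221 for Map2 114119_at, 0.31 for Nefl 162973_at and 0.61 for Ina 169851_r_at. P60 against P28 became 0.0705 for Nefm 117269_at. Ina 94335_r_at turned to 0.14 for P28 against P14 and 0.25 for P60 against P14 with array weights, to 0.18 and 0.20 in the restricted set, and to -0.0233 for P60 against P28 with the replicate block. Lmna turned to -0.13 for P60 against P14 with array weights. With litters left out in turn, P28 against P14 ran from -0.37 to 0.10 for Nefm 92346_at, -0.72 to 0.18 for Ina 94335_r_at, -0.0531 to 0.13 for Map1b, -0.0148 to 0.78 for Mapt 102431_at and -0.38 to 0.0588 for Tubb3 160462_f_at. Over all settings Mapt 170081_at, with 1 low P28 litter, ran from -0.73 to 0.24 for P28 against P14. With litters left out in turn, Ina 94335_r_at ran from -0.0430 to 0.19 for P60 against P28. For P60 against P14 it ran from -0.67 to 0.24 and Lmna from -0.10 to 1.21. The cause was not tested. Stmn2 also passed with the constant at the chip median and without P60 litter 3, and Fyn passed without P60 litter 3.

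Dim probe sets near the control level, such as Map2 97760_at, have differences that depend on the constant. No detection calls or probe-level intensities were used here.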
